A study of Arabidopsis thaliana with 36 samples.

Results

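The circadian clock genes described here are 10 loci of Arabidopsis thaliana, chosen by name as core components of the plant clock. They are the MYB-like transcription factor genes CCA1 (AT2G46830), LHY (AT1G01060) and RVE8 (AT3G09600), the pseudo-response regulator genes PRR9 (AT2G46790), PRR7 (AT5G02810), PRR5 (AT5G24470) and TOC1 (AT5G61380), and the evening genes GI (AT1G22770), ELF4 (AT2G40080) and LUX (AT3G46640). They are 10 of the 32833 loci in the deposited tables. Their mRNA levels were read in 36 libraries, which form 12 groups of 3.

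Seedlings of 3 genotypes were sampled: stp1/4/13, a triple mutant of the monosaccharide transporter genes STP1, STP4 and STP13; Col, the Col-0 wild type; and fls2, which lacks the receptor FLS2 for bacterial flagellin. All were raised at 22 °C with 16 h of light on agar with 25 mM sucrose and moved to liquid culture at 6 days of age. For the flagellin experiment the liquid held 25 mM sucrose, the peptide flg22 was added at 1 µM after 1 day, and the 3 genotypes were harvested 2, 10 and 24 h later. For the sugar experiment, which used Col alone, the 24 h groups are titled 2DG_1mM (1 mM 2-deoxy-D-glucose, a glucose analog that cells phosphorylate but hardly metabolise further), Suc_25mM and Suc_0mM, and the labels describe medium without sucrose for the 2DG treatment. The flagellin experiment held no group without flg22, so fls2 served as the background. A difference from fls2 holds the response to flg22 together with any other effect of that mutation. As titled, the sugar group Suc_25mM is Col at 24 h in 25 mM sucrose without flg22. Its libraries are in another deposited table than those of Col 24 h after flg22, and the 2 groups were not tested against each other. The hour of day of treatment and harvest is not given in the sources used here, so each time below is a time after treatment. For 6 sugar libraries the treatment label names 2DG_1mM and Suc_25mM the other way round from the title; the groups below follow the titles, which are also the column names of the table.

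In the Arabidopsis clock, CCA1 and LHY are morning factors that repress evening genes by binding a short promoter sequence, the evening element, and RVE8 activates genes through the same element. PRR9, PRR7, PRR5 and TOC1 are made in that order through the day and repress CCA1 and LHY in turn. ELF4 and LUX, joined by ELF3, form the evening complex, which represses PRR9 and other targets at night, and GI stabilises ZTL, the F-box protein that marks TOC1 and PRR5 for degradation. Sugar made in the light is known to feed back on the clock, with PRR7 and the transcription factor bZIP63 among the parts of that route.

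The evening element, AAAATATCT, was searched on both strands in the 250 bases before and the 50 bases after each gene start of the RefSeq annotation TAIR10.1. It was present in 4 of the 10 clock genes and in 2.82% of the 27443 promoters of that length, and its neighbourhood in those 4 is printed because this is the word through which the morning factors reach the evening genes. The element is in capitals, written along the gene's own strand; in TOC1, PRR5 and PRR9 the word lies on the opposite strand. It begins 151 bases before the start of TOC1 (chr5:24674792-24674840, plus strand), 187 before that of PRR5 (chr5:8358705-8358753, minus strand), 27 after that of PRR9 (chr2:19232623-19232651, plus strand) and 53 before that of LUX (chr3:17182969-17183017, plus strand).
TOC1: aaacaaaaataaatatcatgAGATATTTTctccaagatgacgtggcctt
PRR5: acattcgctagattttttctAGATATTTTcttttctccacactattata
PRR9: ttctctgagaAGATATTTTcgtggttgtg
LUX: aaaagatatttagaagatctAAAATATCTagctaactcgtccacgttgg
The G-box CACGTG was in 6 of the 10 windows, those of CCA1, LHY, RVE8, PRR9, PRR7 and LUX, against 7.68% of all promoters. The LUX binding word GATNCG was in 3 of 10 (PRR9, ELF4 and RVE8) against 20.5%, the CCA1 binding word AAAAATCT in 1 (PRR5) against 7.88%, and the W-box core TTGAC in 3 (CCA1, PRR7 and ELF4) against 50.5%. None of the evening elements overlapped another of these words, and a match describes the sequence and is not evidence of binding.

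Library totals ran from 15994904 to 20111338 counts at 2 and 24 h after flg22 and from 8054500 to 12881741 counts at 10 h and in the sugar groups, and levels are counts-per-million values (CPM), relative to the library total. FLS2 averaged 0.149 to 0.165 CPM in fls2 groups, against 18.4 to 44.0 CPM in the stp1/4/13 and Col groups of the same experiment, and STP1 averaged 5.81 to 11.4 CPM in stp1/4/13, against 157 to 312 CPM in Col. At 2 h STP1 had 28.7 CPM in stp1/4/13 library 2, against 2.99 and 2.63 CPM in libraries 1 and 3. STP4 averaged 51.0 to 84.1 CPM in stp1/4/13, 190 to 380 CPM in Col and 53.9 to 63.4 CPM in fls2 after flg22. For STP13 these means were 7.56 to 14.5, 98.7 to 323.5 and 5.59 to 28.4 CPM. Libraries with the same replicate number moved together at 2 and 24 h, and the study states that its 3 replicates come from 3 separate trials. Library 3 was the lowest of its group in all 3 genotypes for CCA1, LHY and PRR5 at 2 h and for CCA1, PRR5, PRR9 and LUX at 24 h, and library 2 was the lowest in all 3 sugar groups for PRR7 and GI. For this reason values with the replicate number as a block in the fit are given where they alter a call. The summed level of 6 root marker genes was 2.92 to 17.7 CPM in stp1/4/13 and 2.88 to 7.25 CPM in Col at 10 h, against 120 to 170 CPM in fls2, with COBL9 at 0 counts in every stp1/4/13 library and AGP30 in every Col library. That of 6 photosynthetic marker genes was 4780 to 9850 CPM in 2DG_1mM and 9360 to 14700 CPM in Suc_25mM, against 23400 to 33500 CPM in Suc_0mM. In such bulk RNA, fewer cells of a type and less RNA per cell cannot be told apart.

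Across the 12 groups each clock gene had a wide range of levels. After flg22 the morning genes CCA1, LHY and RVE8 were lowest at 10 h in all 3 genotypes, whereas ELF4 was highest then. CCA1 averaged 89.5 ± 19.45, 6.30 ± 2.63 and 325 ± 49.4 CPM in stp1/4/13 at 2, 10 and 24 h (SD, n = 3 at each time). In Col it averaged 63.0 ± 16.6, 14.2 ± 10.0 and 199 ± 21.3 CPM at those times, and in fls2 77.45 ± 23.4, 12.3 ± 10.1 and 207 ± 53.3 CPM. The CCA1 level was lowest at 10 h and highest at 24 h in each genotype, with no overlap between times. LHY followed the same order, with means of 4.04 to 7.855 CPM at 10 h, 90.0 to 121 CPM at 2 h and 219 to 320 CPM at 24 h. RVE8 did so too, with means of 3.98 to 10.1 CPM at 10 h, 28.1 to 49.0 CPM at 2 h and 59.8 to 83.4 CPM at 24 h. PRR9 was at 1.63 CPM or less in every 10 h library, with 0 counts in Col library 3, which allows up to 0.298 CPM by the limit of 3 counts, and reached its highest level, 41.0 CPM, in stp1/4/13 library 2 at 24 h.

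ELF4, LUX and GI had their highest mean at 10 h in every genotype. ELF4 averaged 19.2 ± 6.82, 174 ± 13.6 and 17.4 ± 3.58 CPM in stp1/4/13 at 2, 10 and 24 h, 23.1 ± 6.16, 142 ± 16.6 and 32.9 ± 4.54 CPM in Col, and 14.7 ± 0.665, 93.0 ± 15.2 and 38.9 ± 4.58 CPM in fls2 (SD, n = 3 each). LUX averaged 69.7 to 78.3 CPM at 10 h and 17.99 to 19.9 CPM at 2 h over the 3 genotypes, and its lowest mean of the flagellin groups was that of fls2 at 2 h. At 24 h LUX had 68.8, 65.9 and 33.3 CPM in fls2, which overlapped its 10 h libraries of 65.0, 79.1 and 64.9 CPM. TOC1 was highest at 10 h in stp1/4/13, at 51.2 ± 9.66 CPM, while in Col its 10 h and 24 h means, 35.1 ± 7.755 and 32.2 ± 13.9 CPM, were within their spread, as were 21.8 ± 6.20 and 26.0 ± 9.13 CPM in fls2 (SD, n = 3 each). GI averaged 13.7 to 15.9 CPM at 10 h, 8.625 to 12.3 CPM at 24 h and 4.78 to 5.77 CPM at 2 h, and its 10 h and 24 h libraries overlapped in fls2. PRR7 had means of 20.6 to 36.6 CPM at 2 h, 23.5 to 52.05 CPM at 10 h and 33.5 to 54.4 CPM at 24 h. PRR5 was at 6.01 CPM or less throughout, with 0 counts in 3 of the 36 libraries. The 10 h libraries are in another deposited table than those of 2 and 24 h, so levels at 10 h were not tested against the other times.

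**Figure D1:**
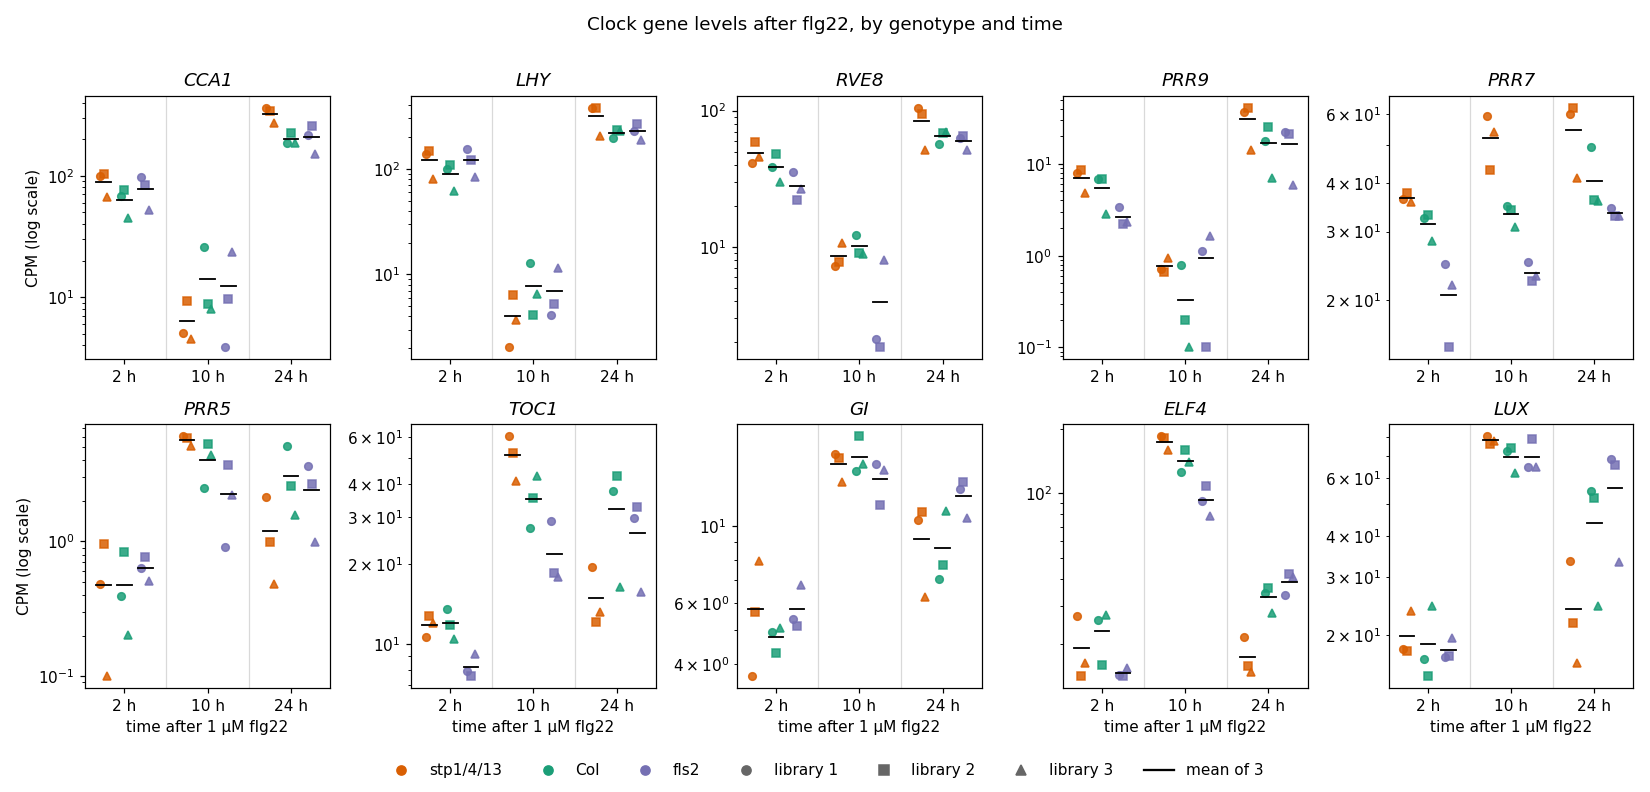
Level of each clock gene in CPM on a log axis after 1 µM flg22, by time (2, 10 and 24 h, left to right) and genotype (stp1/4/13, Col, fls2), with 1 symbol per library (circle, square and triangle for libraries 1, 2 and 3), a bar at the mean of 3, and values under 0.1 CPM drawn at 0.1. By their means CCA1, LHY, RVE8 and PRR9 sit lowest at 10 h and highest at 24 h in every genotype, and ELF4 and LUX sit highest at 10 h. The LUX libraries of 10 and 24 h overlap in fls2.

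At 2 h after flg22 PRR7, a repressor of CCA1 and LHY, was higher in both stp1/4/13 and Col than in fls2, RVE8 and PRR9 were higher in stp1/4/13 than in fls2, and ELF4 was higher in Col than in fls2. With edgeR's quasi-likelihood test and adjustment over all 21463 genes tested, 3 of the 10 clock genes passed an adjusted p of 0.05 in stp1/4/13 over fls2, all higher, where 25.6% of all genes passed and 15.8% were higher. In Col over fls2, 2 passed, both higher, where 34.8% of all genes passed and 18.7% were higher. Both counts are near the shares over all genes, and both comparisons share the fls2 libraries. Between stp1/4/13 and Col, 0 passed, where 0.219% of all genes did; none had an unadjusted p under 0.05 by edgeR and DESeq2 called none.

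PRR7 had 36.3, 37.75 and 35.6 CPM in stp1/4/13, 32.5, 33.1 and 28.4 CPM in Col, and 24.8, 15.15 and 21.9 CPM in fls2. All 3 libraries of stp1/4/13 and all 3 of Col were above every fls2 library. Its log2 fold change was 0.96 ± 0.20 in stp1/4/13 over fls2 (SE, n = 3 each, edgeR adjusted p = 0.0015) and 0.78 ± 0.20 in Col over fls2 (edgeR adjusted p = 0.005). PRR9, which follows CCA1 and LHY in the morning, had 7.855, 8.51 and 4.85 CPM in stp1/4/13, 6.79, 6.92 and 2.85 CPM in Col, and 3.37, 2.19 and 2.31 CPM in fls2. It was higher in stp1/4/13 than in fls2, by 1.56 ± 0.56 on the log2 scale (edgeR adjusted p = 0.048), and no libraries of these groups overlapped. RVE8, the morning activator, had 41.6, 59.25 and 46.0 CPM in stp1/4/13, 38.5, 47.8 and 29.9 CPM in Col, and 35.4, 22.1 and 26.8 CPM in fls2. It was higher in stp1/4/13 than in fls2 by 0.92 ± 0.24 on the log2 scale (edgeR adjusted p = 0.0087), with every stp1/4/13 library above every fls2 library. ELF4, part of the evening complex, had 26.9, 14.2 and 16.4 CPM in stp1/4/13, 25.9, 16.0 and 27.4 CPM in Col, and 14.4, 14.2 and 15.45 CPM in fls2. It was higher in Col than in fls2 by 0.81 ± 0.26 on the log2 scale (edgeR adjusted p = 0.021), with Col library 2 just above the fls2 range.

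The morning genes CCA1 and LHY did not pass any 2 h test. CCA1 had 98.7, 102.5 and 67.1 CPM in stp1/4/13, 67.7, 76.65 and 44.55 CPM in Col, and 97.5, 83.1 and 51.8 CPM in fls2, and LHY had 80.4 to 146 CPM in stp1/4/13, 61.7 to 109 CPM in Col, and 84.4 to 153 CPM in fls2. The groups overlapped for both genes. With the replicate number within each time as a block, edgeR called 5 clock genes higher in stp1/4/13 than in fls2, adding TOC1 (0.64 ± 0.22, adjusted p = 0.034) and CCA1 (0.34 ± 0.13, adjusted p = 0.049), and 5 in Col than in fls2, adding TOC1 (0.70 ± 0.22, adjusted p = 0.018), PRR9 (1.17 ± 0.21, adjusted p = 0.00024) and RVE8 (0.61 ± 0.20, adjusted p = 0.023). Leaving out 1 library left 1 clock gene called in Col over fls2 without Col library 1 or fls2 library 2 or 3, and 1 in stp1/4/13 over fls2 without fls2 library 2; in each of these the gene left was PRR7. PRR9 in stp1/4/13 over fls2 was not called without any 1 of 5 of the 6 libraries (all but stp1/4/13 library 3), at 1.42 to 1.75 with edgeR adjusted p-values of 0.071 to 0.13, nor with RLE scaling (edgeR adjusted p = 0.051). ELF4 in Col over fls2 was not called without any 1 of 5 of the 6 (all but Col library 2), at 0.67 to 0.83 with edgeR adjusted p-values of 0.05 to 0.09. The photosynthetic marker sum at 2 h was 7170 to 13200 CPM in stp1/4/13 and 4210 to 7300 CPM in Col, against 14900 to 17900 CPM in fls2, and its part in these differences was not tested.

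At 10 h after flg22 the repressors PRR7, TOC1 and PRR5 and the evening gene ELF4 had their highest means in stp1/4/13, and RVE8 had its lowest in fls2. Of these only PRR7 passed in stp1/4/13 over Col. Of the 9 clock genes tested at 10 h, PRR9 being too low, 5 were higher in stp1/4/13 than in fls2, where 52.2% of 19561 genes passed. In Col over fls2, 4 were higher, where 51.3% passed, and 1 was higher in stp1/4/13 than in Col, where 12.5% passed. The shares of all genes called higher were 26.9%, 24.9% and 7.67% in these comparisons. The counts are near the shares of all genes called in either direction, which is no result about the clock genes as a group.

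PRR7 had 59.3, 43.0 and 53.8 CPM in stp1/4/13, 34.9, 34.1 and 30.8 CPM in Col, and 25.1, 22.5 and 23.1 CPM in fls2. The 3 genotypes did not overlap. It was the clock gene that passed between stp1/4/13 and Col, with a log2 fold change of 0.73 ± 0.15 (edgeR adjusted p = 0.0044), and it was higher by 1.18 ± 0.15 in stp1/4/13 over fls2 (edgeR adjusted p = 5.4e-06) and by 0.45 ± 0.15 in Col over fls2 (edgeR adjusted p = 0.021). TOC1 had 60.2, 52.4 and 41.0 CPM in stp1/4/13, 27.25, 35.4 and 42.8 CPM in Col, and 28.9, 18.5 and 17.9 CPM in fls2. Its stp1/4/13 libraries were all above fls2, but the Col range reached into both of the other genotypes. It was higher by 1.27 ± 0.21 in stp1/4/13 over fls2 (edgeR adjusted p = 8.2e-05) and by 0.64 ± 0.21 in Col over fls2 (edgeR adjusted p = 0.018), while 0.63 ± 0.21 in stp1/4/13 over Col did not pass (edgeR adjusted p = 0.058). PRR5, the repressor made between PRR7 and TOC1, had 6.01, 5.81 and 5.07 CPM in stp1/4/13, 2.49, 5.26 and 4.375 CPM in Col, and 0.910, 3.66 and 2.21 CPM in fls2. It passed in stp1/4/13 over fls2 alone, with 1.34 ± 0.44 (edgeR adjusted p = 0.017).

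ELF4 had 184, 180 and 159 CPM in stp1/4/13, 126, 159 and 141 CPM in Col, and 92.1, 109 and 78.2 CPM in fls2. It was higher by 0.93 ± 0.15 in stp1/4/13 over fls2 (edgeR adjusted p = 6.7e-05) and by 0.55 ± 0.15 in Col over fls2 (edgeR adjusted p = 0.0059), with neither pair overlapping. Col library 2 was just above stp1/4/13 library 3, and the ELF4 value of 0.38 in stp1/4/13 over Col did not pass. Its evening complex partner LUX had 76.45 to 80.4 CPM in stp1/4/13, 62.15 to 74.1 CPM in Col, and 64.9 to 79.1 CPM in fls2, and its log2 fold change over fls2 was 0.20 ± 0.14 in stp1/4/13 and -0.05 ± 0.14 in Col, neither of which passed. RVE8 had 7.25, 7.71 and 10.7 CPM in stp1/4/13, 12.3, 9.04 and 8.95 CPM in Col, and 2.12, 1.83 and 7.98 CPM in fls2. It was higher over fls2 by 1.14 ± 0.41 in stp1/4/13 (edgeR adjusted p = 0.026) and by 1.30 ± 0.41 in Col (edgeR adjusted p = 0.013), and fls2 library 3 lay within the stp1/4/13 range. GI had 11.5 to 18.2 CPM over the 9 libraries, with log2 fold changes between 0.01 and 0.18, none past the test. Leaving out 1 library left PRR7, TOC1 and ELF4 called in stp1/4/13 over fls2 in every case. RVE8 was lost there without fls2 library 1 or 2 or stp1/4/13 library 3, and PRR5 without fls2 library 1. In Col over fls2 only ELF4 was kept in every case. PRR7 was lost without Col library 1 or 2 or fls2 library 3, and TOC1 without Col library 3 or fls2 library 2 or 3. RVE8 was lost in Col over fls2 without Col library 1 or fls2 library 1 or 2. The low root marker sum of stp1/4/13 and Col against fls2 at this time moved with these differences, as did a vascular marker sum of 299 to 352 CPM in stp1/4/13 and 279 to 331 CPM in Col, against 90.5 to 125 CPM in fls2. The photosynthetic marker sum was 12600 to 16000 CPM in stp1/4/13, 6350 to 8920 CPM in Col and 11600 to 15800 CPM in fls2. The part of these markers in the differences was not tested.

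The morning pair was not called at 10 h, where CCA1 had 5.04, 9.33 and 4.54 CPM in stp1/4/13, 25.8, 8.84 and 7.955 CPM in Col, and 3.84, 9.56 and 23.45 CPM in fls2. A single library, number 1 in Col and number 3 in fls2, stood well above the other two of its group, and the same libraries were the highest for LHY, at 12.8 and 11.4 CPM.

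**Figure D2:**
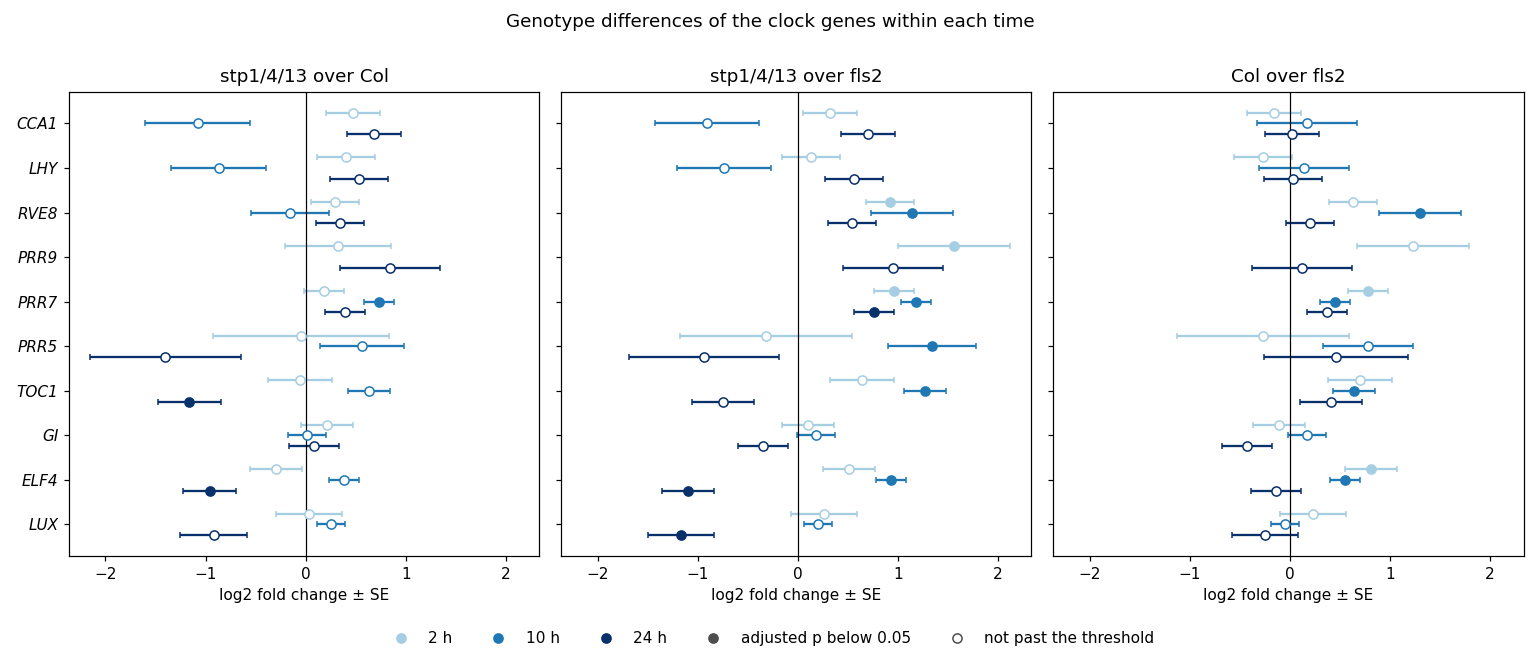
Log2 fold change (± SE, edgeR, n = 3 libraries per group) of each clock gene between genotypes, for stp1/4/13 over Col, stp1/4/13 over fls2 and Col over fls2, with filled symbols for an adjusted p below 0.05 and 1 shade per time. PRR7 lies above 0 in all 9 comparisons, and ELF4, TOC1 and LUX in stp1/4/13 lie above 0 at 10 h and below 0 at 24 h against both other genotypes.

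At 24 h after flg22 ELF4 and TOC1 were lower in stp1/4/13 than in Col, and ELF4 and LUX were lower and PRR7 higher in stp1/4/13 than in fls2. GI averaged 9.21 ± 2.57 CPM in stp1/4/13, 8.625 ± 2.15 CPM in Col and 12.3 ± 1.49 CPM in fls2 (SD, n = 3 each) and passed in no genotype comparison. In stp1/4/13 over Col, 2 of 10 clock genes passed edgeR's test, both lower, where 9.01% of all genes passed in either direction and 4.55% were lower. In stp1/4/13 over fls2, 1 was higher and 2 were lower, where 19.9% of all genes passed, 11.5% higher and 8.39% lower. The 2 comparisons share the stp1/4/13 libraries. In Col over fls2, 0 passed, where 18.6% of all genes did; 0 clock genes had an unadjusted p under 0.05 by edgeR and DESeq2 called 0. TOC1 was called there when Col library 3 was left out.

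ELF4 had 21.5, 15.8 and 14.9 CPM in stp1/4/13, 34.4, 36.6 and 27.85 CPM in Col, and 33.6, 42.1 and 40.9 CPM in fls2. Every stp1/4/13 library was below every library of the other genotypes, while Col and fls2 overlapped. Its log2 fold change was -0.96 ± 0.26 over Col (SE, n = 3 each, edgeR adjusted p = 0.03) and -1.10 ± 0.26 over fls2 (edgeR adjusted p = 0.0053). TOC1, which represses CCA1 and LHY in the evening, had 19.5, 12.1 and 13.1 CPM in stp1/4/13, 37.7, 42.6 and 16.35 CPM in Col, and 29.65, 32.7 and 15.6 CPM in fls2. Library 3 of Col and of fls2 lay within the stp1/4/13 range, and libraries 1 and 2 of each lay well above it. TOC1 was lower in stp1/4/13 than in Col by a log2 fold change of -1.16 ± 0.31 (edgeR adjusted p = 0.031), and its value over fls2, -0.75 ± 0.31, did not pass (edgeR adjusted p = 0.1). LUX had 33.5, 21.8 and 16.5 CPM in stp1/4/13, 55.0, 52.3 and 24.6 CPM in Col, and 68.8, 65.9 and 33.3 CPM in fls2. It was lower over fls2, at -1.17 ± 0.33 (edgeR adjusted p = 0.018), and its -0.92 ± 0.33 over Col did not pass (edgeR adjusted p = 0.087). Within each library number LUX was lower in stp1/4/13 than in both other genotypes.

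PRR7 had 59.8, 62.25 and 41.2 CPM in stp1/4/13, 49.4, 36.1 and 35.98 CPM in Col, and 34.5, 32.9 and 33.0 CPM in fls2. It was higher over fls2, by 0.76 ± 0.20 (edgeR adjusted p = 0.01), with no overlap, and its 0.39 ± 0.20 over Col did not pass (edgeR adjusted p = 0.22). CCA1 had 364, 341 and 269 CPM in stp1/4/13, 187.5, 223 and 185 CPM in Col, and 216, 256 and 150 CPM in fls2. The stp1/4/13 libraries were above all others, and the log2 fold changes of 0.68 ± 0.27 over Col and 0.70 ± 0.27 over fls2 did not pass (edgeR adjusted p = 0.11 and 0.074). LHY had 375.5, 380 and 203 CPM in stp1/4/13, 194, 233 and 229 CPM in Col, and 227, 264 and 188 CPM in fls2, so libraries 1 and 2 of stp1/4/13 were the highest and library 3 was not. RVE8 had the same shape, with 105, 93.8 and 51.15 CPM in stp1/4/13, 57.4, 68.0 and 69.6 CPM in Col, and 62.7, 65.5 and 51.05 CPM in fls2. PRR9 had 36.6, 41.0 and 13.99 CPM in stp1/4/13, 17.7, 25.5 and 6.96 CPM in Col, and 22.4, 21.0 and 5.91 CPM in fls2, and was higher in stp1/4/13 within each library number.

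Whether clock genes passed at 24 h depended on the replicate block. With the replicate number within each time as a block, edgeR called 7 clock genes in stp1/4/13 over Col: CCA1 (0.67 ± 0.13, adjusted p = 0.002), LHY (0.47 ± 0.16, adjusted p = 0.046) and PRR9 (0.87 ± 0.18, adjusted p = 0.0028) were higher, and TOC1, ELF4, LUX (-0.88 ± 0.16, adjusted p = 0.0016) and PRR5 (-1.45 ± 0.49, adjusted p = 0.047) were lower. For stp1/4/13 over fls2 edgeR called 7 as well under that block, CCA1 (0.72 ± 0.13, adjusted p = 0.00049), LHY (0.53 ± 0.16, adjusted p = 0.019), PRR9 (1.01 ± 0.18, adjusted p = 0.00045) and PRR7 higher and TOC1 (-0.68 ± 0.21, adjusted p = 0.025), ELF4 and LUX lower, and in Col over fls2 it called 0. Without the block, no clock gene was called in stp1/4/13 over Col when Col library 1 or 2 or stp1/4/13 library 2 or 3 was left out. The log2 fold changes were then -0.90 to -0.85 for ELF4 and -1.07 to -0.94 for TOC1. None was called when only these groups were fitted, with -0.97 for ELF4 and -1.17 for TOC1. With all libraries numbered 3 left out, CCA1, LHY, TOC1, PRR9 and LUX passed but ELF4 did not. With all libraries numbered 1, or all numbered 2, left out, no clock gene passed. LUX joined ELF4 and TOC1 without stp1/4/13 library 1 or Col library 3. ELF4 alone was called in stp1/4/13 over fls2 without stp1/4/13 library 2. In that comparison LUX was called only without stp1/4/13 library 1 or fls2 library 3, whereas ELF4 was called whichever single library was left out. ELF4 was not called there with all libraries numbered 2, or all numbered 3, left out. The photosynthetic marker sum was 12400 to 15600 CPM in stp1/4/13, against 5370 to 10600 CPM in Col and 10800 to 14000 CPM in fls2. The root marker sum was 6.65 to 12.7 CPM in stp1/4/13 and 10.3 to 19.5 CPM in Col, against 79.9 to 104 CPM in fls2, and all 6 root markers were called lower in both over fls2. The sum of 3 vascular marker genes was 141 to 178 CPM in stp1/4/13 and 126 to 141 CPM in Col, against 69.8 to 91.4 CPM in fls2. The part of these markers in the differences at 24 h was not tested.

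Whether the genotype difference itself moved with time was tested as a difference of differences. Between 24 and 2 h, 0 of 10 clock genes passed for stp1/4/13 against Col, where 0.028% of all genes did, and 0 for Col against fls2, where 10.5% did; 1 in each had an unadjusted p under 0.05 by edgeR, and DESeq2 called 0 in both. Another 3 such comparisons were added after the data had been seen. For stp1/4/13 against fls2 between 24 and 2 h, ELF4 (-1.62 ± 0.37, edgeR adjusted p = 0.0067) and TOC1 (-1.39 ± 0.45, edgeR adjusted p = 0.046) passed, where 14.5% of all genes did and 8.15% were lower. Between 24 and 10 h, in a fit of all 27 flagellin libraries, ELF4 (-2.12 ± 0.34, edgeR adjusted p = 8.5e-05), TOC1 (-2.11 ± 0.42, edgeR adjusted p = 0.00084) and LUX (-1.45 ± 0.41, edgeR adjusted p = 0.011) passed for stp1/4/13 against fls2, where 23.4% of all genes did and 12.3% were lower. For stp1/4/13 against Col between 24 and 10 h, TOC1 passed (-1.80 ± 0.42, edgeR adjusted p = 0.039), where 0.728% of all genes did and 0.461% were lower, and ELF4 (-1.36 ± 0.33) missed the threshold (edgeR adjusted p = 0.051). Each negative value means that the gene was lower in stp1/4/13 relative to the other genotype at 24 h than at the earlier time. The TOC1 call against Col was lost without any 1 of 10 of the 12 libraries concerned (all but Col library 3 and stp1/4/13 library 1 of 24 h), with edgeR adjusted p-values of 0.058 to 0.15, and the 10 h and 24 h libraries come from different tables. The TOC1 call against fls2 between 24 and 2 h was also lost without any 1 of 10 libraries, whereas that of ELF4 was kept without any 1.

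With the replicate number within each time as a block, the difference of differences passed for further clock genes. Between 24 and 2 h these were LUX for stp1/4/13 against fls2 (-1.40 ± 0.23, edgeR adjusted p = 0.00041) and PRR9 for Col against fls2 (-1.03 ± 0.27, edgeR adjusted p = 0.015). Between 24 and 10 h they were ELF4 (-1.36 ± 0.29, edgeR adjusted p = 0.0071) and LUX (-1.16 ± 0.22, edgeR adjusted p = 0.003) for stp1/4/13 against Col, and PRR5 (-2.58 ± 0.66, edgeR adjusted p = 0.0051) for stp1/4/13 against fls2. With the replicate number as 1 block over all times, CCA1 (1.66 ± 0.61, edgeR adjusted p = 0.047) and PRR5 (-2.37 ± 0.85, edgeR adjusted p = 0.042) passed for stp1/4/13 against fls2 between 24 and 10 h.

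Between 24 and 2 h after flg22 the morning genes were higher at the later time in every genotype, and the evening genes TOC1, LUX and GI were higher in Col and fls2. Of 10 clock genes, 4 were higher in stp1/4/13, 8 in Col and 9 in fls2 by edgeR, and none was lower. Over all genes 27.4%, 32.7% and 19.8% passed in either direction in those genotypes, and 14%, 17.1% and 11.9% were higher. The 4 genes CCA1, LHY, PRR9 and RVE8 were higher in all 3 genotypes. PRR5 was called higher in Col alone and PRR7 in fls2 alone. CCA1 was higher by 1.78 ± 0.28 in stp1/4/13, 1.57 ± 0.27 in Col and 1.39 ± 0.27 in fls2 on the log2 scale (SE, n = 3 each, edgeR adjusted p = 0.00016, 0.00041 and 0.0047). PRR9 was higher by 2.04 ± 0.53 in stp1/4/13, 1.53 ± 0.53 in Col and 2.64 ± 0.56 in fls2 (edgeR adjusted p = 0.0079, 0.033 and 0.0068). The evening genes differed in whether they passed: TOC1 had 0.27 ± 0.32 in stp1/4/13, 1.36 ± 0.32 in Col and 1.65 ± 0.32 in fls2, and LUX 0.20 ± 0.33, 1.15 ± 0.33 and 1.63 ± 0.34 in the same order, with the values in Col and fls2 past the test. ELF4 had -0.23 ± 0.26 in stp1/4/13, 0.43 ± 0.26 in Col and 1.38 ± 0.26 in fls2, and passed in fls2 alone (edgeR adjusted p = 0.0041). GI was higher in Col (0.76 ± 0.26, edgeR adjusted p = 0.031) and in fls2 (1.08 ± 0.26, edgeR adjusted p = 0.011) and had 0.62 ± 0.25 in stp1/4/13. The tests of whether these changes differed between genotypes are the differences of differences above. With the replicate block, PRR7 also passed in stp1/4/13 (0.49 ± 0.17, edgeR adjusted p = 0.033) and PRR5 in fls2 (1.74 ± 0.59, edgeR adjusted p = 0.038). Leaving out 1 library reduced the Col count to between 3 and 6, lowest without Col library 1 of 2 h, and that of fls2 to 5 without fls2 library 2 of 2 h. CCA1 passed in each genotype whichever single library was left out. In Col, PRR9 was then called only without library 3 of 24 h and RVE8 only without library 2 of 2 h. GI in Col was called only without library 1 of 24 h, and LUX only without library 3 of 2 h or of 24 h. RVE8 in stp1/4/13 was called only without library 2 of 2 h or library 3 of 24 h. LHY and PRR7 in fls2 were called only without library 1 of 2 h or library 3 of 24 h. PRR5 in Col was called only without library 2 of 2 h or library 2 or 3 of 24 h. All 6 root markers were called lower at 24 h than at 2 h in stp1/4/13 and in Col and 0 in fls2. In the difference of differences between 24 and 2 h, all 6 root markers were lower and 4 of 6 photosynthetic markers higher, both for stp1/4/13 against fls2 and for Col against fls2, and none of either for stp1/4/13 against Col. The part of these markers in the changes of the clock genes was not tested.

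In Col seedlings of the sugar experiment, the morning genes CCA1, LHY and RVE8 were lower with 25 mM sucrose than without, and LUX was higher. In 2DG_1mM, CCA1 and RVE8 were lower and LUX and ELF4 were higher than in Suc_0mM. By edgeR over 19727 genes, 4 of 10 clock genes passed in 2DG_1mM over Suc_0mM, 2 higher and 2 lower, where 49.2% of all genes passed, 21.3% higher and 27.9% lower. In Suc_25mM over Suc_0mM 1 was higher and 3 were lower, where 12.5% of all genes passed, 6.41% higher and 6.08% lower. In 2DG_1mM over Suc_25mM 2 passed, both higher, where 49.3% of all genes passed and 21.4% were higher. The first 2 of these comparisons share the Suc_0mM libraries. The median log2 fold change over all genes was -0.21 in 2DG_1mM over Suc_0mM and -0.23 in 2DG_1mM over Suc_25mM. Relative to these medians the called genes had -1.08 (CCA1), -0.68 (RVE8), 1.15 (LUX) and 1.18 (ELF4) over Suc_0mM, and 1.27 (LHY) and 0.85 (RVE8) over Suc_25mM.

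CCA1 had 296, 210 and 299 CPM in 2DG_1mM, 256, 264 and 317 CPM in Suc_25mM, and 621, 687 and 741 CPM in Suc_0mM. Every Suc_0mM library was above all of the others, which overlapped. Its log2 fold change was -1.42 ± 0.21 in Suc_25mM over Suc_0mM (SE, n = 3 each, edgeR adjusted p = 0.0016) and -1.30 ± 0.21 in 2DG_1mM over Suc_0mM (edgeR adjusted p = 0.0004). LHY had 471, 428.5 and 466 CPM in 2DG_1mM, 213, 294 and 240 CPM in Suc_25mM, and 500.3, 764 and 654 CPM in Suc_0mM. The 3 groups did not overlap, with 2DG_1mM between the others. LHY was lower in Suc_25mM than in Suc_0mM, at -1.49 ± 0.23 (edgeR adjusted p = 0.0022), and higher in 2DG_1mM than in Suc_25mM, at 1.05 ± 0.23 (edgeR adjusted p = 0.003), while -0.44 ± 0.23 in 2DG_1mM over Suc_0mM did not pass (edgeR adjusted p = 0.13). RVE8 had 86.0, 67.2 and 77.9 CPM in 2DG_1mM, 58.0, 59.6 and 52.4 CPM in Suc_25mM, and 127.5, 157 and 161 CPM in Suc_0mM. It was lower over Suc_0mM in both, at -0.90 ± 0.21 in 2DG_1mM (edgeR adjusted p = 0.0044) and -1.52 ± 0.21 in Suc_25mM (edgeR adjusted p = 0.0013), and higher in 2DG_1mM than in Suc_25mM, at 0.62 ± 0.21 (edgeR adjusted p = 0.029). This last call was lost without 2DG_1mM library 1 or 3 or Suc_25mM library 1 or 3.

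LUX had 46.5, 47.3 and 44.7 CPM in 2DG_1mM, 66.9, 50.1 and 57.7 CPM in Suc_25mM, and 28.2, 32.4 and 15.5 CPM in Suc_0mM. It was higher over Suc_0mM by 0.94 ± 0.26 in 2DG_1mM (edgeR adjusted p = 0.011) and by 1.09 ± 0.26 in Suc_25mM (edgeR adjusted p = 0.018), with no overlap in either. ELF4 had 64.3, 56.9 and 31.4 CPM in 2DG_1mM, 52.1, 29.3 and 27.9 CPM in Suc_25mM, and 38.45, 23.7 and 20.65 CPM in Suc_0mM. It was higher in 2DG_1mM than in Suc_0mM by 0.97 ± 0.34 (edgeR adjusted p = 0.036), with the groups overlapping, and within each library number the order was 2DG_1mM, Suc_25mM, Suc_0mM. TOC1 had 22.2 to 27.2 CPM in 2DG_1mM, 25.8 to 34.4 CPM in Suc_25mM, and 20.1 to 22.2 CPM in Suc_0mM, with log2 fold changes of 0.23 ± 0.23 and 0.32 ± 0.23 over Suc_0mM that did not pass.

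PRR7 and GI varied widely between the libraries of 1 sugar group. PRR7 had 22.3, 9.29 and 36.9 CPM in 2DG_1mM, 25.9, 9.45 and 35.3 CPM in Suc_25mM, and 57.8, 19.3 and 30.8 CPM in Suc_0mM. GI had 3.096, 2.098 and 5.48 CPM in 2DG_1mM, 19.6, 2.24 and 22.0 CPM in Suc_25mM, and 12.5, 2.59 and 15.8 CPM in Suc_0mM. Library 2 was the lowest of its group in all 3 groups for both genes. GI had a log2 fold change of -1.84 ± 0.80 in 2DG_1mM over Suc_25mM that missed the threshold (edgeR adjusted p = 0.077). Under the replicate block it was -1.46 ± 0.51 (edgeR adjusted p = 0.038), and ELF4 then passed as well, at 0.67 ± 0.24 (edgeR adjusted p = 0.041). PRR9 had 2.53 to 16.5 CPM over the 9 libraries and PRR5 0 to 4.99 CPM, and neither passed. With the treatment label in place of the title, the 2DG_1mM and Suc_25mM values change places, so LHY and RVE8 would be lower in 2DG_1mM than in Suc_25mM, at -1.05 and -0.62; CCA1, RVE8 and LUX passed over Suc_0mM in both groups under either naming. CCA1, LHY and RVE8 passed in Suc_25mM over Suc_0mM whichever 1 library was left out, whereas LUX was not called without Suc_25mM library 1 or 3, and ELF4 in 2DG_1mM over Suc_0mM was not called without 2DG_1mM library 1 or 2 or Suc_0mM library 2 or 3. The photosynthetic marker sums given above moved with these differences. The root marker sum was 2.20 to 3.85 CPM in 2DG_1mM and 33.0 to 59.1 CPM in Suc_25mM, against 23.4 to 40.2 CPM in Suc_0mM, and 5 of 6 root markers were called lower in 2DG_1mM over each of the others, with EXPA7 at 0 counts in every 2DG_1mM library. The vascular marker sum was 39.4 to 43.1 CPM in 2DG_1mM and 61 to 78.4 CPM in Suc_25mM, against 116 to 165 CPM in Suc_0mM. The part of these markers in the differences was not tested.

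**Figure D3:**
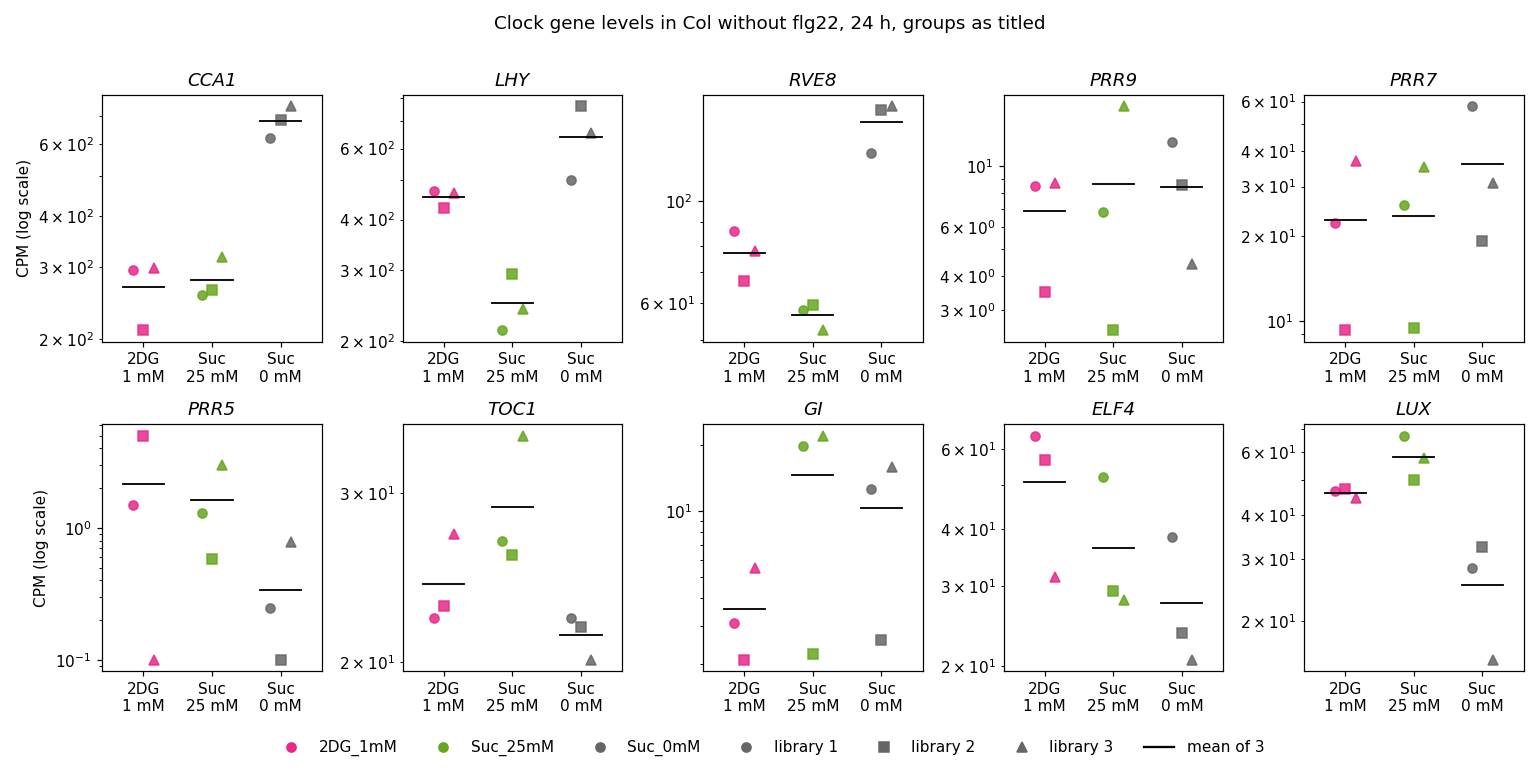
Level of each clock gene in CPM on a log axis in Col seedlings at 24 h, for the groups titled 2DG_1mM, Suc_25mM and Suc_0mM, with 1 symbol per library, a bar at the mean of 3, and values under 0.1 CPM drawn at 0.1. CCA1 and RVE8 are highest and LUX lowest in all 3 Suc_0mM libraries, and library 2 is the lowest point of all 3 groups for PRR7 and GI.

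Beside these 10 genes, 22 other clock components were followed. They gave 0 calls in stp1/4/13 over Col at 2 h, 3 higher at 10 h and 2 higher at 24 h, and in Col over fls2 3 higher and 2 lower at 2 h, 5 higher and 2 lower at 10 h and 2 higher at 24 h. In stp1/4/13 over fls2 the counts were 2 higher and 2 lower, 7 higher and 3 lower, and 3 higher at the same times. The shares of all genes that passed at 2, 10 and 24 h were 0.219%, 12.5% and 9.01% in stp1/4/13 over Col, 34.8%, 51.3% and 18.6% in Col over fls2, and 25.6%, 52.2% and 19.9% in stp1/4/13 over fls2, so these counts are near or below the background and are no result about the list. BOA, a close relative of LUX, had 34.8, 31.4 and 39.0 CPM in stp1/4/13 at 10 h, against 15.9, 25.3 and 18.5 CPM in Col and 8.997, 6.61 and 6.73 CPM in fls2. BOA was higher by 0.90 ± 0.20 over Col (edgeR adjusted p = 0.006) and RVE4, a relative of RVE8, by 1.07 ± 0.17 (edgeR adjusted p = 0.00053). LNK2, a coactivator of RVE8, had 396, 403 and 291 CPM in stp1/4/13 at 24 h, against 148, 175 and 180 CPM in Col and 106, 115 and 83.7 CPM in fls2. LNK2 was higher by 1.09 ± 0.25 over Col (edgeR adjusted p = 0.015) and by 1.89 ± 0.26 over fls2 (edgeR adjusted p = 3.7e-05), with none of the 3 genotypes overlapping. CHE, a factor that represses CCA1, was lower in Col than in fls2 at 2 h (-1.79 ± 0.23, edgeR adjusted p = 5.9e-06) and at 10 h (-1.11 ± 0.16, edgeR adjusted p = 1.3e-05). ELF4-L1, a relative of ELF4, was higher in Col than in fls2 at 2, 10 and 24 h, by 2.54 ± 0.53, 2.73 ± 0.52 and 2.09 ± 0.49.

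In the sugar groups, of the 21 other clock components tested, 3 were higher and 5 lower in 2DG_1mM than in Suc_0mM, and 0 higher and 5 lower in Suc_25mM than in Suc_0mM. In 2DG_1mM over Suc_25mM 5 were higher and 4 lower. Over all genes 49.2%, 12.5% and 49.3% passed in these comparisons. LNK2 had 106.5, 104 and 184 CPM in 2DG_1mM and 73.2, 101 and 106 CPM in Suc_25mM, against 480.4, 596 and 542 CPM in Suc_0mM. LNK2 was lower, at -1.98 ± 0.27 in 2DG_1mM (edgeR adjusted p = 0.00013) and at -2.65 ± 0.28 in Suc_25mM (edgeR adjusted p = 0.00026), as were RVE4 (-0.86 ± 0.24 and -1.74 ± 0.24) and LNK4 (-2.30 ± 0.26 and -1.46 ± 0.25). ELF4-L1 had 15.3, 9.89 and 6.93 CPM in 2DG_1mM, against 0.656, 0 and 0.155 CPM in Suc_0mM.

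Among the 4 genes of the route from sugar to the clock, BZIP63, whose product binds the PRR7 promoter, was higher in stp1/4/13 than in fls2 at all 3 times. It had 53.0, 60.1 and 42.9 CPM in stp1/4/13, 24.6, 38.3 and 38.1 CPM in Col, and 15.85, 18.2 and 14.6 CPM in fls2 at 2 h. At 10 h it had 139, 114.5 and 119 CPM in stp1/4/13, 84.5, 66.2 and 65.6 CPM in Col, and 26.2, 19.7 and 17.9 CPM in fls2. BZIP63 was higher in stp1/4/13 than in fls2 by 1.78 ± 0.31, 2.58 ± 0.17 and 1.79 ± 0.31 at 2, 10 and 24 h (edgeR adjusted p = 0.00029, 2e-09 and 0.0004) and higher than in Col at 10 h by 0.87 ± 0.16 (edgeR adjusted p = 0.002). PRR7 and BZIP63 were each highest in stp1/4/13 and lowest in fls2 at 10 h, without overlap. At 2 h every Col library was also above every fls2 library for BZIP63. Of the 4 genes, 1, 3 and 1 passed in stp1/4/13 over fls2 at 2, 10 and 24 h, where 25.6%, 52.2% and 19.9% of all genes did. In Col over fls2, 2, 1 and 1 passed, 1 of them higher at each time, where 34.8%, 51.3% and 18.6% did. These counts are no result about the list. In the sugar groups BZIP63 had 60.2, 44.75 and 52.9 CPM in 2DG_1mM, 12.2, 47.3 and 6.70 CPM in Suc_25mM, and 132.5, 166 and 76.7 CPM in Suc_0mM, and was lower in Suc_25mM than in Suc_0mM, at -2.57 ± 0.60 (edgeR adjusted p = 0.016). TPS1, KIN10 and KIN11 encode the trehalose-6-phosphate synthase and catalytic subunits of the energy-sensing kinase SnRK1. TPS1 was lower in Col than in fls2 at 2 h (-0.94 ± 0.29, edgeR adjusted p = 0.015) and in stp1/4/13 than in fls2 at 10 h (-1.41 ± 0.32, edgeR adjusted p = 0.0012), KIN11 was higher in stp1/4/13 than in fls2 at 10 h (0.59 ± 0.18, edgeR adjusted p = 0.01), and KIN10 was higher in 2DG_1mM than in Suc_25mM (0.87 ± 0.26, edgeR adjusted p = 0.015).

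Over all 36 libraries CCA1, LHY, RVE8 and PRR9 formed a morning set by the Pearson correlation of log2 CPM, and ELF4, LUX and TOC1 an evening set. The libraries come from 2 tables whose depth ranges did not overlap. Library totals were 15994904 to 20111338 counts at 2 and 24 h after flg22. At 10 h and in the sugar groups they were 8054500 to 12881741 counts. Table and depth were therefore not separated from time and treatment in these correlations. CCA1 and LHY had r = 0.98, each had r = 0.94 with RVE8, and PRR9 had r = 0.82 with all 3. ELF4 had r = 0.84 with LUX and 0.75 with TOC1, and LUX had r = 0.84 with TOC1. Between the sets the values were negative, with r = -0.76 for LHY and ELF4 and -0.70 for CCA1 and ELF4. They were weaker for TOC1, at -0.27 with CCA1, -0.36 with LHY, -0.24 with RVE8 and -0.22 with PRR9. GI had 0.46 with TOC1 and LUX and 0.47 with ELF4, while PRR7 was between -0.15 and 0.55 with every other clock gene. Among all named genes of sufficient level, CCA1 was most like LHY, BBX19 (r = 0.952) and COL1 (0.941), LHY like CCA1, RVE8 and COL1 (0.934), RVE8 like LHY, CCA1 and HYH (0.936), and PRR9 like BBX32 (0.891), BBX31 (0.86) and SIGE (0.849). LUX was most like ALDH5F1 (0.926), BBX8 (0.883) and COL9 (0.855), TOC1 like MEE14 (0.9), RD19 (0.894) and COR27 (0.881), and ELF4 like LUX, UBP12 (0.833) and PAB2 (0.816). PRR7, PRR5 and GI had no gene above r = 0.75: the most like were TBP2 (0.743), UPS2 (0.74) and GLR1.1 (0.733) for PRR7, MT2A (0.701), VAB3 (0.698) and PRR3 (0.694) for PRR5, and DEG8 (0.715), LHT2 (0.702) and PRR3 (0.7) for GI. These values, over 36 libraries of 12 groups, are descriptions and carry no test.

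Same-numbered libraries deviated from their group means in the same direction for several clock genes. At 24 h PRR9 in library 3 was below the group mean of log2 CPM, at -1.23 to -0.97 in the 3 genotypes, LUX at -0.75 to -0.47 and TOC1 at -0.86 to -0.15. At 2 h CCA1 in library 3 was at -0.53 to -0.39 and LHY at -0.54 to -0.47, and in the sugar groups GI in library 2 was at -2.09 to -0.62 and PRR7 at -1.11 to -0.75. These shifts had the same sign in all 3 groups of a set. For comparison, PRR9 differed between stp1/4/13 and Col at 24 h by 0.84 ± 0.50 on the log2 scale.

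**Figure D4:**
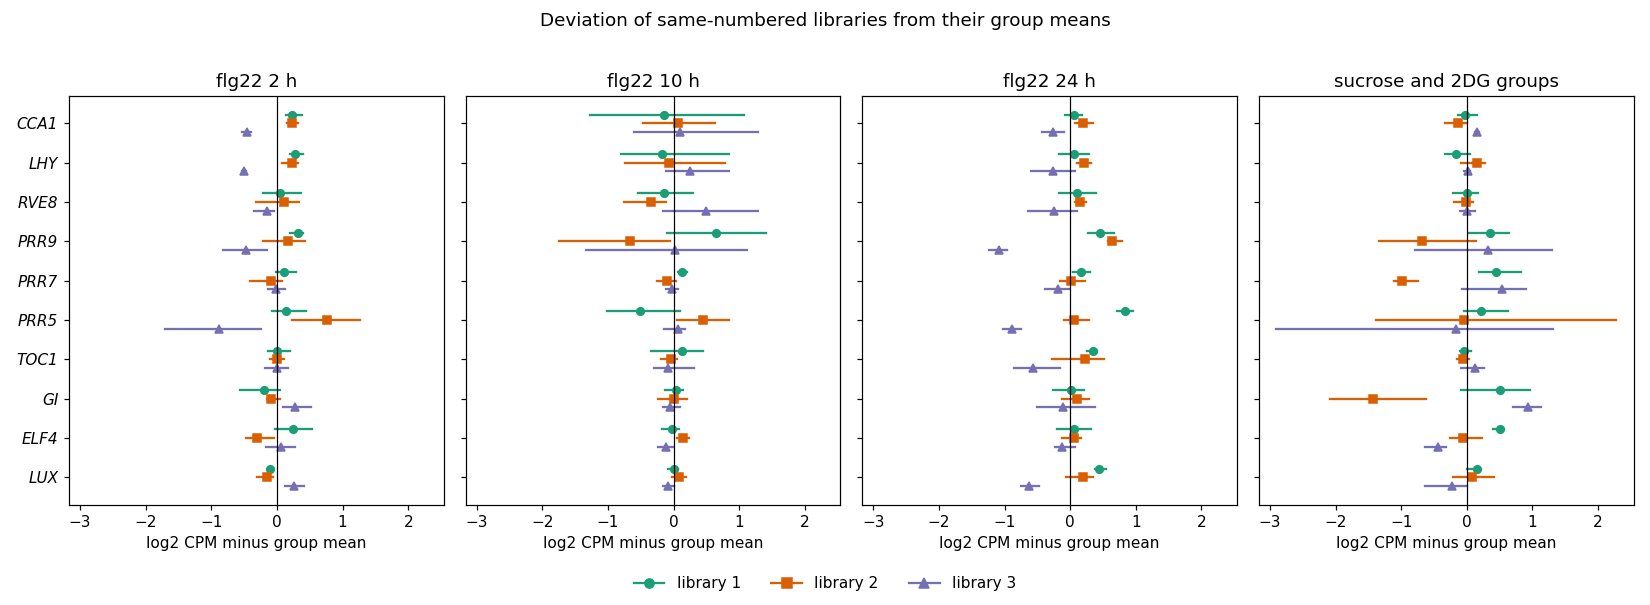
Deviation of log2 CPM from the group mean for libraries 1, 2 and 3 of each set of 3 groups (flg22 2 h, 10 h and 24 h, and the sucrose and 2DG groups), 1 row per clock gene, with the symbol at the mean of the 3 groups and the line from their lowest to their highest value. Library 3 lies below 0 in all 3 groups for PRR9, LUX and TOC1 at 24 h and for CCA1 and LHY at 2 h, and library 2 does for GI and PRR7 in the sugar groups.

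LUX overlaps AT3G46650, a gene on the opposite strand, over 1507 bases in TAIR10.1. The libraries were made by a strand-specific method that sequences the 3′ end of transcripts, so levels were not compared between genes, and the strand setting of the read counting is not given in the sources used here. AT3G46650 had 0 to 129 counts per library with a median of 25.5, against 200 to 1176 with a median of 489 for LUX. The LUX level could hold reads of its partner or lack reads from the overlap, and these counts set no limit on such a loss.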

How the data were processed

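The authors deposited raw read counts per locus in 2 tables, 1 column per library and 36 columns in all, with no scaling in the values. Per the labels' protocols, strand-specific 3′ end libraries were made by BrAD-seq from total RNA. The submitters' processing notes name fastp 0.19.7, STAR 2.6.1b, featureCounts 1.6.0 and the build TAIR10. The strand setting of the counting and the annotation release are not given in the sources used here.

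Libraries were grouped by their titles, which are also the column names of the tables, in 12 groups of 3. Levels are counts-per-million values (CPM), relative to each library's total. Tests used edgeR 4.0.16 with limma 3.58.1 in R 4.3.3: TMM scaling, filterByExpr, the two-sided quasi-likelihood test and Benjamini-Hochberg adjustment over all genes of a fit, with a threshold of 0.05. The fits held 18 libraries of 2 and 24 h (21463 genes), 9 libraries of 10 h (19561 genes, PRR9 removed by the filter), 9 sugar libraries (19727 genes) and, for comparisons added after the data were seen, 27 flagellin libraries (21700 genes). The procedure was run on simulated counts with known changes, drawn independently for each library. The simulation held no shared shift of same-numbered libraries, so it did not test that setting.

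Alternatives were DESeq2 1.42.0, RLE scaling, no filter, a filter of 5 CPM in 3 libraries, the replicate number as a block, that block within each time, only the compared groups, the treatment label in place of the title, and each library left out. Leaving out all libraries of 1 number was chosen after seeing the data, as were the 3 added comparisons. The clock genes and the gene lists were chosen with earlier results of these data known. Of 64 genes on the lists 62 were used, since the annotation does not give the symbol of the other two at their locus. The clock genes called in the reported fit are named in each comparison, and those not called are named in part. From the other lists at most the 4 largest called rises and 4 largest called falls of a comparison are named. The 3 genes most like each clock gene are those with the highest Pearson r of log2 CPM (prior count 2) over the 36 libraries among genes that have a symbol and average 1 or more on that scale. The promoter windows were read from the RefSeq genome TAIR10.1.

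The study's design text says that 3 independent trials gave the 3 replicates, and the replicate number was taken as the trial, although no label states that link for each number. Deviations from group means correlated between same-numbered libraries with a median r of 0.254 at 2 h (7 of 9 pairs over 0.1), 0.364 at 24 h (8 of 9), 0.033 at 10 h (0 of 9) and 0.041 in the sugar groups (3 of 9). For differently numbered libraries the medians were -0.12, -0.177, -0.007 and -0.022.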

Additional observations from a re-analysis of the deposited data

Results flagged for a closer look

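TOC1 and ELF4 were set apart because the difference between stp1/4/13 and fls2 was itself unequal at 24 and 2 h after flg22, by a test of the difference of differences. The log2 values were -1.39 for TOC1 and -1.62 for ELF4, lower in stp1/4/13 relative to fls2 at 24 h than at 2 h. Between 24 and 10 h the corresponding values were -2.11 for TOC1, -2.12 for ELF4 and -1.45 for LUX. Against Col, TOC1 had -1.80 between 24 and 10 h. The comparisons with 10 h join libraries from 2 deposited tables, and all of these use the same stp1/4/13 libraries of 24 h. All of them were added after the data had been seen. The planned tests, for stp1/4/13 against Col and for Col against fls2 between 24 and 2 h, called 0 clock genes. The TOC1 calls at -1.39 and -1.80 were each lost in most fits with 1 library left out.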

How the results depend on the processing

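Of the 57 calls of clock genes, 8 were kept under every alternative, 49 were lost under at least 1 and 2 reversed: with the treatment label in place of the title, LHY and RVE8 in 2DG_1mM over Suc_25mM were at -1.05 and -0.62. Of 140 values that did not pass, 100 passed under no alternative. A replicate block added 24 calls and changed no other call. The number of clock genes called in Col over fls2 at 2 h was 4 with the replicate block, 5 with the block within time and 5 with only the compared groups, and in stp1/4/13 over fls2 at 2 h it was 5 with the block within time. In stp1/4/13 over Col it was 3 without the filter and 4 with only the compared groups at 10 h, and 4 with the block, 7 with the block within time and 0 with only the compared groups at 24 h. For stp1/4/13 over fls2 at 24 h it was 6 with the block and 7 with the block within time, and in 2DG_1mM over Suc_25mM it was 1 without the filter and 4 with the block. For the difference of differences it was 1 for Col against fls2 between 24 and 2 h with the block within time. Between 24 and 10 h it was 2 for stp1/4/13 against Col with DESeq2, without the filter, with the strict filter and with the block, 3 with the block within time, and 5 for stp1/4/13 against fls2 with the block. The cause of these changes was not tested.

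With 1 library, or all libraries of 1 number, left out, the counts ran as follows. In Col over fls2 they were 1 to 4 at 2 h, 1 to 3 at 10 h and 0 to 1 at 24 h. In stp1/4/13 over Col they were 0 at 2 h, 0 to 2 at 10 h and 0 to 5 at 24 h, and over fls2 0 to 3, 4 to 5 and 0 to 7. In the sugar groups they were 3 to 5 in 2DG_1mM over Suc_0mM, 1 to 4 in Suc_25mM over Suc_0mM and 0 to 3 in 2DG_1mM over Suc_25mM. Between 24 and 2 h they were 1 to 6 in stp1/4/13, 1 to 6 in Col and 0 to 10 in fls2. For the difference of differences between 24 and 2 h they were 0 for stp1/4/13 against Col, 0 to 3 for stp1/4/13 against fls2 and 0 to 1 for Col against fls2, and between 24 and 10 h 0 to 3 against Col and 1 to 5 against fls2 for stp1/4/13.

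Over all genes, the calls in stp1/4/13 over Col at 2 h were 47, against 224 with DESeq2, 126 with the block, 489 with the block within time and 27 with only the compared groups. At 24 h they were 1934, against 3227, 4489 and 184 under the last 3 of these. In Col over fls2 at 24 h 3984 became 2090 with only the compared groups, and under the treatment label 9697 calls in 2DG_1mM over Suc_0mM and 2463 in Suc_25mM over Suc_0mM changed places. For the difference of differences between 24 and 2 h, the block within time gave 3721 in place of 2262 for Col against fls2 and 5104 in place of 3112 for stp1/4/13 against fls2. For stp1/4/13 against Col it was 6, with 47 by DESeq2, 3 with RLE, 16 with the block and 90 with the block within time. Between 24 and 10 h it was 158, with 617 by DESeq2, 240 without the filter, 356 with the block and 1395 with the block within time. With libraries left out, the calls ran from 22 to 3740 in stp1/4/13 over Col at 24 h and from 0 to 5868 between 24 and 2 h in fls2. Counts of PRR5, and of PRR9 at 10 h, were too few for small differences to be detectable.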

Other observations

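The 14 genes of a list of clock outputs were followed beside the clock genes. In stp1/4/13 over Col they gave 0 calls at 2 h, 4 higher at 10 h and 1 higher at 24 h, and in Col over fls2 1 higher and 4 lower, 2 higher and 4 lower, and 2 lower at those times. Over all genes 0.219%, 12.5% and 9.01% passed in stp1/4/13 over Col and 34.8%, 51.3% and 18.6% in Col over fls2. At 2 h PIF4, a growth-promoting transcription factor gene, had 2.99, 5.71 and 1.42 CPM in stp1/4/13, 0.953, 1.26 and 1.325 CPM in Col, and 11.3, 10.4 and 11.8 CPM in fls2. PIF4 was lower over fls2 in stp1/4/13 (-1.61 ± 0.40, edgeR adjusted p = 0.006) and in Col (-3.08 ± 0.44, edgeR adjusted p = 2.3e-05), with no overlap. CAT3, a catalase gene, was lower in Col than in fls2 at 2, 10 and 24 h, with log2 fold changes of -0.66 ± 0.24, -0.91 ± 0.14 and -1.06 ± 0.24 (edgeR adjusted p = 0.038, 4.9e-05 and 0.0043). At 24 h PIF5, a relative of PIF4, had 27.25, 35.8 and 49.6 CPM in stp1/4/13, 9.785, 15.1 and 23.8 CPM in Col, and 15.7, 19.2 and 27.2 CPM in fls2. PIF5 was higher in stp1/4/13 than in Col by 1.19 ± 0.30 (edgeR adjusted p = 0.021).

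In the sugar groups, of 13 clock outputs tested, 0 were higher and 7 lower in 2DG_1mM than in Suc_0mM, 1 higher and 6 lower in Suc_25mM than in Suc_0mM, and 2 higher and 7 lower in 2DG_1mM than in Suc_25mM, where 49.2%, 12.5% and 49.3% of all genes passed in either direction. GRP7, an RNA-binding protein gene whose transcript cycles, had 210.6, 123 and 139.5 CPM in 2DG_1mM, 3589, 3792 and 3241 CPM in Suc_25mM, and 1398, 2093 and 1393 CPM in Suc_0mM, with no overlap between groups. GRP7 was lower in 2DG_1mM than in Suc_0mM (-3.31 ± 0.27, edgeR adjusted p = 5e-06) and higher in Suc_25mM than in Suc_0mM (1.00 ± 0.25, edgeR adjusted p = 0.022). With the treatment label in place of the title, the values of 2DG_1mM and Suc_25mM would change places.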
